A study of Homo sapiens with 4 samples.

Results

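The 10 keratin genes that this account follows (KRT7, KRT8, KRT10, KRT15, KRT17, KRT18, KRT19, KRT80, KRT81 and KRT86) were taken by gene name from a deposited table of 58735 genes read in 4 libraries. The cells were of MDA-MB-231, a long-established line of human triple-negative breast cancer, and all 4 populations carried a doxycycline-inducible histone H2B-eGFP reporter (TetOn-H2BeGFP). All of them had been induced with doxycycline at 5 μg/ml for 3 days, stained with the dyes Claret and Violet, and left for a chase of 12 days, during which each division dilutes the labels. The top 1% of cells for Claret, for eGFP or for Violet were sorted as 3 populations of slow-cycling cells, while the Bulk population passed the sorter un-gated. Each population gave 1 library, so no difference below has a replicate check, and intervals and tests cover counting error only. Libraries are named by their titles. The treatment field of the labels names a different sort for every one of them, and the closing section gives the values under that naming.

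Keratins are the intermediate filament proteins of epithelial cells. A type I keratin and a type II keratin pair to form the filament, so cells of an epithelium usually make a matched set. Simple epithelia make KRT8 and KRT18, often with KRT7 and KRT19. Basal cells of layered epithelia make KRT5 and KRT14, joined by KRT15 and, in wounded or activated skin, by KRT17. Hair keratins such as KRT81 and KRT86 are cysteine-rich proteins of the hair shaft and nail. In breast cancer, keratins serve as markers of luminal and basal character, and MDA-MB-231 is a mesenchymal-like line in which vimentin filaments coexist with simple-epithelial keratins.

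Libraries held 15508179 to 16976909 reads in genes, and mitochondrial genes took 4.18% of them in Bulk and 5.06% to 5.48% in the slow-cycling libraries. The marker set used for the line is VIM high and ESR1, PGR, ERBB2, EPCAM and CDH1 low. VIM had 156 to 211 FPKM (the authors' level per gene length, scaled to library size). PGR had 0 reads in every library, ESR1 had 3 to 7 reads and CDH1 0 to 3. ERBB2, at 8.54 to 9.06 FPKM, and EPCAM, with 28 to 61 reads (0.692 to 1.52 FPKM), were not absent. The basal keratins KRT5 and KRT6A had 0 reads in every library, and KRT14 had 1 read in Bulk and 0 elsewhere. Of the blood markers, CD3E was at 0 and PTPRC had at most 2 reads. Fibroblast markers summed to 1.89 FPKM in Bulk and 2.12 to 2.31 in the slow-cycling libraries, and endothelial markers to 0.519 and 0.562 to 0.863. Among them VWF had 19 to 24 reads in the slow-cycling libraries and 4 in Bulk. The part of these markers in the results was not tested. The 7 luminal markers summed to 6.80 to 7.56 FPKM, and the 6 basal or myoepithelial markers to 0.166 to 0.312 FPKM. Only 4 of the luminal markers and 1 of the basal ones had enough reads to be tested.

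Of the 55 keratin genes in the table, the 10 followed here held 99.8% of the keratin reads in Claret, eGFP and Violet and 99.9% in Bulk. The other 45 keratins had 23 to 61 reads in all per library, and 23 of them had no read in any. Reads of the 10 genes made up 0.131% of Bulk, 0.192% of Claret, 0.188% of eGFP and 0.170% of Violet. In such sorted populations, a change in the number of cells that make a transcript and a change in the transcript per cell cannot be told apart.

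Against Bulk, the keratins divided into 4 that were higher in every slow-cycling library and 5 that stayed within a 2-fold change. KRT19, KRT15, KRT81 and KRT86 were called higher in each slow-cycling library, where a call requires an adjusted p under 0.05 (exact binomial test on the reads of the pair of libraries, Benjamini-Hochberg over 14585 genes) and a log2 ratio of at least 1 in size. KRT7, KRT8, KRT18, KRT10 and KRT80 were called in no comparison. Thus 4 of the 9 keratins tested were called higher and 0 lower in each library. Over all 14585 genes, 11.2% were called higher and 6.71% lower in Claret, 11.9% and 7.61% in eGFP, and 11.5% and 6.91% in Violet. The 3 comparisons share the Bulk library. Genes called higher in all 3 made up 8.41% of those tested, and genes called lower in all 3 made up 4.93%. The median log2 ratio of the 9 keratins was 0.22 (Claret), 0.21 (eGFP) and 0.22 (Violet), against -0.01, -0.01 and 0.01 over all genes tested. An adjusted p under 0.05 at any fold was reached by 8, 8 and 7 of the 9 in Claret, eGFP and Violet, against 68.4%, 69.5% and 68.9% of all genes. All 9 were above 1 CPM (counts scaled to library size) in Bulk alone, and KRT17 was too weak to be tested.

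**Figure D1:**
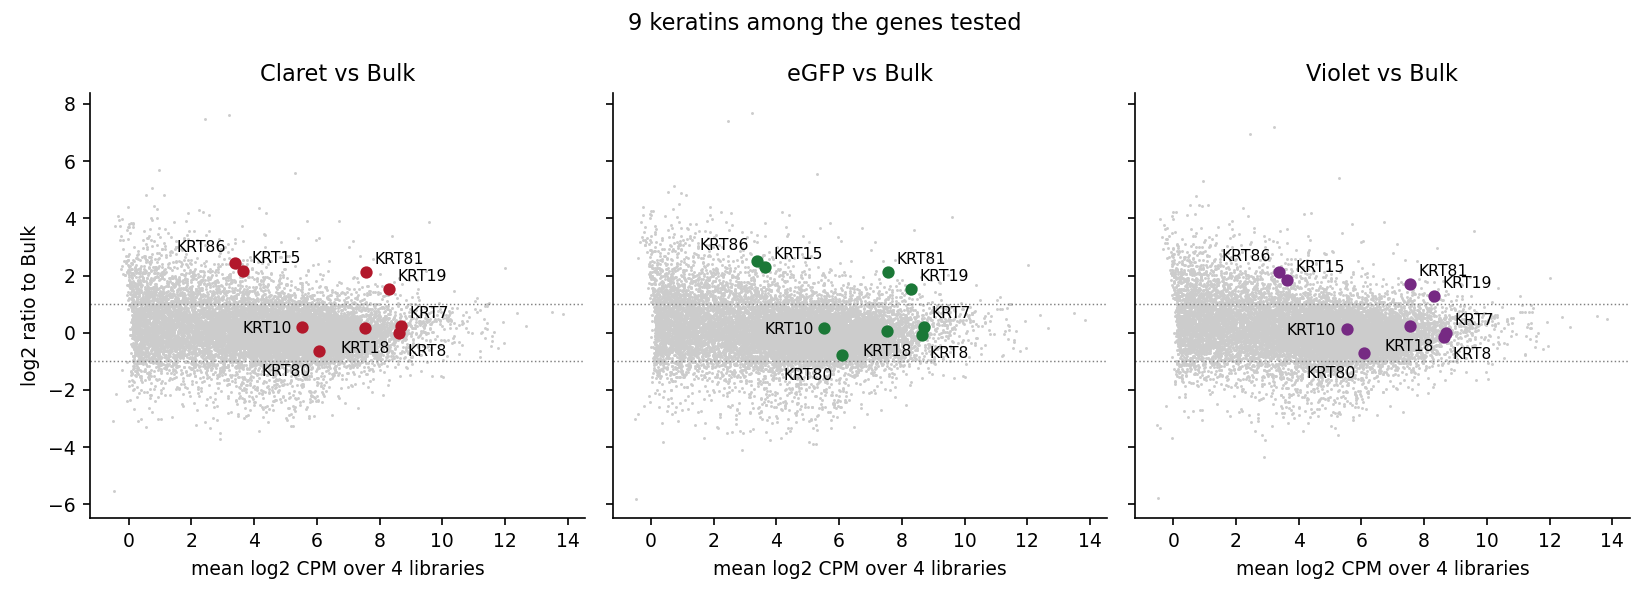
The log2 ratio to Bulk (vertical axis) is plotted against mean log2 CPM over the 4 libraries (horizontal axis) for the 14585 genes tested (grey) and the 9 keratins tested (coloured), 1 panel for each slow-cycling library, with dotted lines at log2 ratios of 1 and -1. KRT19, KRT15, KRT81 and KRT86 lie above the upper line in every panel and the other 5 keratins lie between the lines.

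The simple-epithelial keratins were the most strongly expressed set, and KRT19 alone among its 4 genes was called higher. KRT19 (ENSG00000171345, chromosome 17, 41523617 to 41528308, minus strand), a small type I keratin used as a tumour-cell marker, had 2345 reads in Bulk, against 7329 in Claret, 6832 in eGFP and 5709 in Violet. Per length it stood at 64.6 FPKM in Bulk, against 185, 183 and 152 FPKM in Claret, eGFP and Violet. Bulk was the lowest library and Violet the lowest of the slow-cycling ones. KRT19 rose by 1.54 on the log2 scale in Claret (95% interval 1.47 to 1.60), by 1.53 in eGFP (1.46 to 1.60) and by 1.28 in Violet (1.22 to 1.35), or 2.90-fold, 2.89-fold and 2.44-fold. In Claret 94.9% of all genes tested had a lower ratio.

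KRT18 (ENSG00000111057, chromosome 12, 52948871 to 52952901, plus strand) is the type I partner of KRT8, and it did not share the difference of KRT19. It had 2690 reads in Bulk, against 3287 in Claret, 2858 in eGFP and 3133 in Violet, or 53.8, 60.2, 55.6 and 60.6 FPKM. Its log2 ratio to Bulk reached 0.18 in Claret (0.11 to 0.26), 0.07 in eGFP (-0.00 to 0.15) and, in Violet, 0.22 (0.15 to 0.30), none called. In eGFP the difference was not detectable at this depth.

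KRT8 (ENSG00000170421, chromosome 12, 52897187 to 52949954, minus strand), the type II partner of KRT18, had 6493, 6904, 6214 and 5924 reads in Bulk, Claret, eGFP and Violet. This corresponds to 60.7, 59.1, 56.5 and 53.6 FPKM. The log2 ratio stood at -0.02 in Claret (-0.07 to 0.03), -0.08 in eGFP (-0.13 to -0.03) and -0.13 in Violet (-0.18 to -0.08). KRT8 and KRT18 lie side by side in opposite orientation and share 525 exonic bases, which make up 16.3% of the exonic bases of KRT18. Reads there can be told apart only by strand. Adding the reads of their pseudogenes, 156 to 181 per library for KRT8 and 19 to 21 for KRT18, called neither gene.

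KRT7 (ENSG00000135480, chromosome 12, 52232520 to 52252186, plus strand), a type II keratin of ducts and glands, had 6056 reads in Bulk, against 7622 in Claret, 7079 in eGFP and 5983 in Violet. Claret and eGFP lay above Bulk, with log2 ratios of 0.22 (0.17 to 0.27) and 0.21 (0.16 to 0.26), and Violet differed by -0.02 (-0.07 to 0.04), which was not detectable at this depth. None of these ratios was called. KRT7 had the highest GC content of the 10 keratins, 62.9% against a median of 48.3% over the genes tested, and with a GC correction its log2 ratios were 0.057 in Claret and 0.033 in eGFP. The sign in Violet changed with the scaling of the libraries, as did that of KRT8 in Claret, and under those scalings both values stayed near 0. With the GC correction the log2 ratio of KRT7 in Violet was -0.17.

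**Figure D2:**
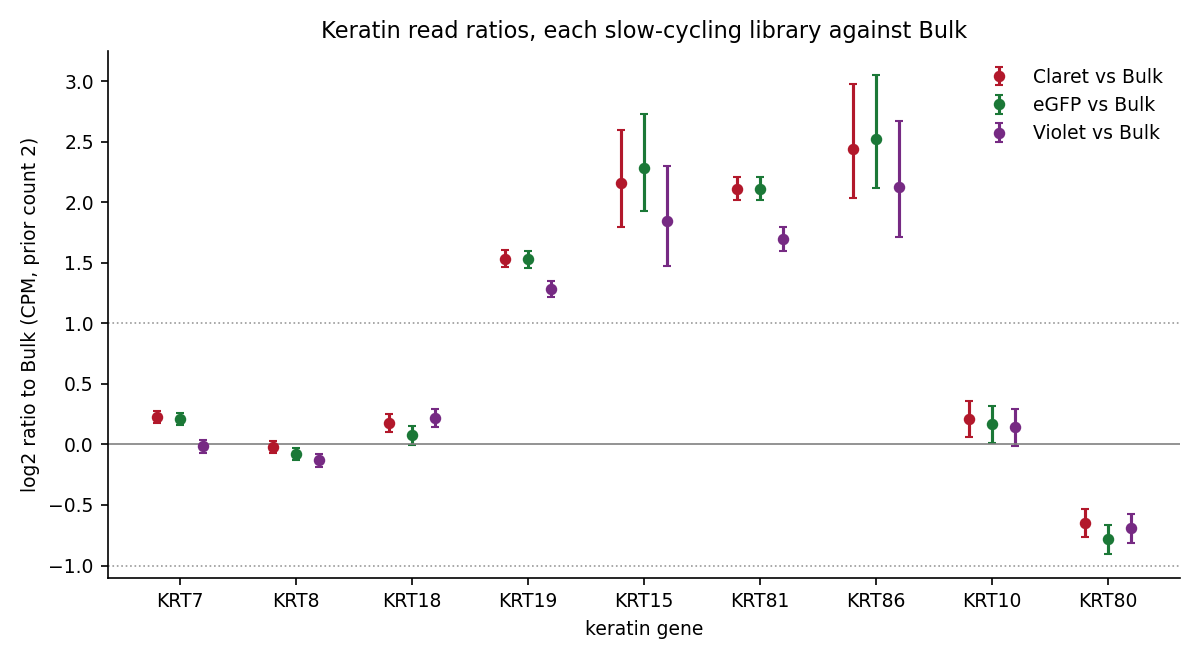
The log2 ratio to Bulk with its 95% exact interval (counting error only) is plotted for 9 keratins in Claret, eGFP and Violet, with dotted lines at 1 and -1. The intervals of KRT19, KRT15, KRT81 and KRT86 lie wholly above 1, those of KRT80 lie between -1 and 0, and those of KRT7, KRT8, KRT18 and KRT10 lie near 0.

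The hair keratins KRT81 and KRT86 were both called higher in all 3 slow-cycling libraries, and they need to be read with their sequences, because the genes are near-identical copies. Both encode type II keratins. KRT81 (ENSG00000205426, chromosome 12, 52285913 to 52291534, minus strand) lies wholly inside the gene span of KRT86 (ENSG00000170442, chromosome 12, 52249300 to 52309163, plus strand), on the other strand, and shares no exonic base with it by position. Their coding sequences are 94.2% identical over 1454 aligned bases in GENCODE 29, with 85 differences and an identical run of 605 bases. For comparison, KRT15 and KRT19 are 73.2% identical, with a longest identical run of 29 bases. The following stretches of 90 coding bases are shown because they are where these genes are easiest to tell apart. Capitals mark the bases that differ between KRT81 and KRT86, and positions count from the first base of the start codon. They cover bases 1237 to 1326 of both genes, the gap-free stretch with the most differences (19). The median stretch of that length has 1 difference.
KRT81, bases 1237 to 1326: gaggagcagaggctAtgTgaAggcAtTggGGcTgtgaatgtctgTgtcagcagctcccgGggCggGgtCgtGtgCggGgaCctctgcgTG
KRT86, bases 1237 to 1326: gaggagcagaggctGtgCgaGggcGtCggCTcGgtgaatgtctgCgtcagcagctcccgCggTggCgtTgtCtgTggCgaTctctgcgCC

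KRT81 had 1064 reads in Bulk, against 4968 in Claret, 4644 in eGFP and 3453 in Violet. Its level was 35.5 FPKM in Bulk, against 152, 151 and 111 FPKM in Claret, eGFP and Violet. All 3 slow-cycling libraries were above Bulk, Claret and eGFP were nearly equal, and Violet was lower than both. KRT81 rose by 2.11 on the log2 scale in Claret (2.02 to 2.21), by 2.11 in eGFP (2.02 to 2.21) and by 1.70 in Violet (1.60 to 1.80), or 4.33-fold, 4.32-fold and 3.24-fold. In Claret 97.8% of all genes tested had a lower ratio.

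KRT86 was weaker by far but moved by a similar factor. It had 46 reads in Bulk, against 279 in Claret, 276 in eGFP and 208 in Violet, or 1.24, 6.87, 7.21 and 5.41 FPKM. Its log2 ratio came to 2.44 in Claret (2.04 to 2.98), 2.52 in eGFP (2.12 to 3.06) and 2.13 in Violet (1.71 to 2.67). It was called in all 3. On the log2(FPKM + 1) scale these ratios were 1.81, 1.88 and 1.52. Of the 31-base words in its transcripts, 44.8% also occur in transcripts of other genes, and 34.7% occur in KRT81. For KRT81 these shares are 52.4% and 42.5%. How reads that match several genes were counted is not given in the sources used here, so the count of KRT86 is uncertain.

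Within a library, KRT86 had 4.32 reads per 100 KRT81 reads in Bulk (95% interval 3.15 to 5.81), against 5.62 in Claret (4.96 to 6.34), 5.94 in eGFP (5.24 to 6.71) and 6.02 in Violet (5.21 to 6.93). All 4 intervals overlap one another. Whether KRT86 reads come from KRT81 transcripts was not tested. KRT83, whose coding sequence is 93.4% identical to that of KRT81, had at most 3 reads. The sum of KRT81, KRT83 and KRT86 does not depend on how reads were divided among these genes. It still depends on whether reads matching several genes were dropped or counted more than once. It also leaves out the pseudogene KRT87P, which holds 16.8% of the 31-base words of KRT81 and 12.7% of those of KRT86. KRT85, which holds 12.0% of the words of KRT86 and had at most 1 read, is left out too. The sum was 1110 reads in Bulk, against 5250 in Claret, 4923 in eGFP and 3662 in Violet. Its log2 ratio to Bulk was 2.13 (2.04 to 2.23), 2.14 (2.04 to 2.23) and 1.72 (1.63 to 1.82).

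Of the basal keratins, KRT15 was called higher and KRT17 was nearly silent. KRT15 (ENSG00000171346, chromosome 17, 41513743 to 41522529, minus strand), a type I keratin of basal cells and hair-follicle stem cells, had 64 reads in Bulk, against 315 in Claret, 322 in eGFP and 235 in Violet. Its level was low in every library, at 0.583 FPKM in Bulk, against 2.63, 2.85 and 2.07 FPKM in Claret, eGFP and Violet. KRT15 rose by 2.16 on the log2 scale in Claret (1.80 to 2.60), by 2.28 in eGFP (1.93 to 2.73) and by 1.85 in Violet (1.47 to 2.30). On the log2(FPKM + 1) scale, which understates changes of low genes, its ratios were 1.20, 1.28 and 0.96, the last of them under the threshold of 1.

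KRT15 starts 1087 bases beyond the end of KRT19 on the same strand. KRT15 had 2.73 reads per 100 KRT19 reads in Bulk (2.09 to 3.50), against 4.30 in Claret (3.83 to 4.81), 4.71 in eGFP (4.20 to 5.27) and 4.12 in Violet (3.60 to 4.69). Bulk's interval lies below all 3 others, so that KRT15 was higher in the slow-cycling libraries in relation to KRT19 as well. Whether transcripts that run on from KRT19 add to the reads of KRT15 was not tested. Few sequences are shared, since 4.09% of the 31-base words of KRT15 occur in other genes.

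KRT17 (ENSG00000128422, chromosome 17, 41619441 to 41624842, minus strand), a type I keratin of basal and stressed epithelium, had 2 reads in Bulk, against 0 in Claret, 7 in eGFP and 2 in Violet. Its count of 0 in Claret allows up to 0.177 CPM. No ratio between libraries is given for it, since only eGFP lay above the floor of 3 reads.

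The remaining pair did not reach a 2-fold change, and KRT80 was the keratin with the largest decrease in reads. KRT80 (ENSG00000167767, chromosome 12, 52168996 to 52192000, minus strand), an epithelial type II keratin, had 1534 reads in Bulk, against 1054 in Claret, 899 in eGFP and 949 in Violet, or 22.7, 14.3, 12.9 and 13.6 FPKM. Its log2 ratio stood at -0.65 in Claret (-0.76 to -0.54), -0.78 in eGFP (-0.90 to -0.66) and -0.69 in Violet (-0.81 to -0.57). All 3 intervals exclude 0, but none reaches -1 and KRT80 was not called.

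KRT10 (ENSG00000186395, chromosome 17, 40818117 to 40822595, minus strand), the type I keratin of differentiating epidermis, had 664 reads in Bulk, against 828 in Claret, 753 in eGFP and 732 in Violet. Its log2 ratio reached 0.21 in Claret (0.06 to 0.36), 0.17 in eGFP (0.02 to 0.32) and 0.14 in Violet (-0.01 to 0.30). This last difference was not detectable at this depth.

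**Figure D3:**
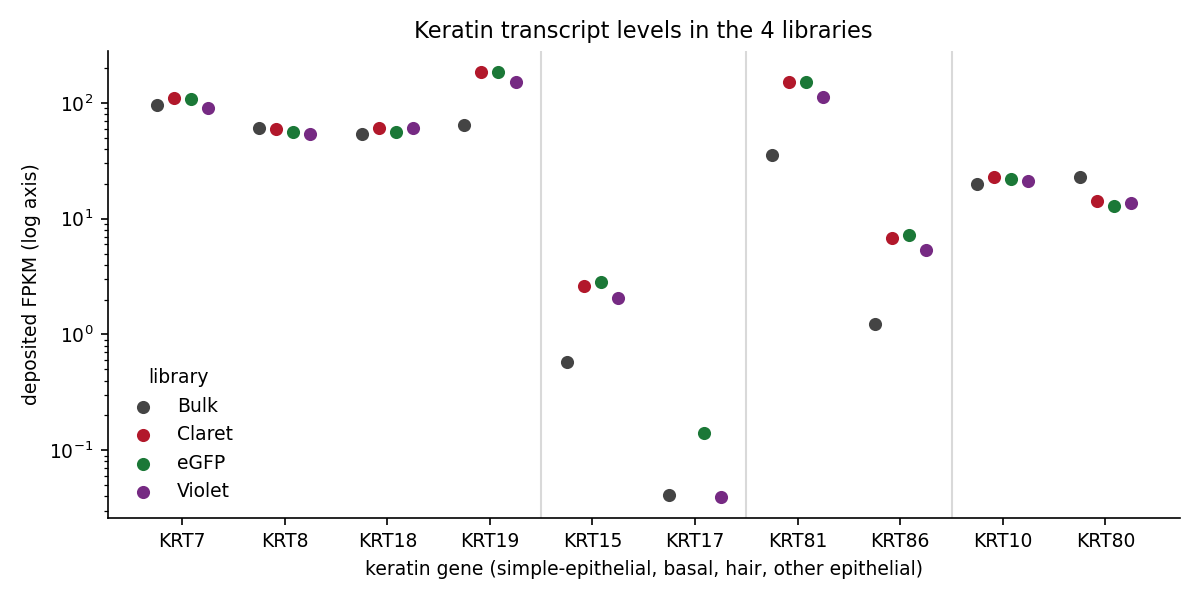
Deposited FPKM on a log axis is plotted for each keratin, with 1 point per library and vertical lines dividing the simple-epithelial, basal, hair and other keratins. The value of 0 for KRT17 in Claret cannot be drawn on a log axis, and the Bulk points of KRT19, KRT15, KRT81 and KRT86 lie below the 3 others.

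The order of levels changed between Bulk and the slow-cycling libraries. In Bulk the order by FPKM was KRT7 at 95.2, KRT19 at 64.6, KRT8 at 60.7, KRT18 at 53.8, KRT81 at 35.5, KRT80 at 22.7, KRT10 at 19.9, KRT86 at 1.24, KRT15 at 0.583 and KRT17 at 0.0411. In Claret, eGFP and Violet it began with KRT19, KRT81 and KRT7, with KRT81 at 152, 151 and 111 FPKM and KRT7 at 109.7, 108 and 91.0. No spread between cultures was measured, so neighbours such as KRT8 and KRT18 cannot be ordered.

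The gene length behind each FPKM matters for this order. The deposited length counts all exons of all transcripts, which for KRT8 is 6881 bases against 1687 in its main coding transcript, 4.08 times as long, while for KRT81 both are 1929 bases. On the length of the main transcript KRT8 led in Bulk with 248, followed by KRT7 with 222, KRT18 with 122, KRT19 with 109 and KRT81 with 35.5. KRT19 led in Claret, eGFP and Violet on this scale too, with 311, 308 and 256. KRT81, at 152, 151 and 111, came after KRT7 and KRT8 in each, and in Violet also after KRT18, at 137. This length was chosen after the deposited lengths had been seen. Ratios of the same gene between libraries do not depend on it.

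Summed over the 10 genes, FPKM was 354 in Bulk, against 612 in Claret, 599 in eGFP and 511 in Violet. Hair keratins held 10.4% of this sum in Bulk, against 25.9%, 26.4% and 22.9% in Claret, eGFP and Violet. Nearly all of this was KRT81, which alone held 10.0% in Bulk and 24.8%, 25.1% and 21.8% in those libraries. The simple-epithelial keratins held 77.4% in Bulk and 67.6%, 67.3% and 69.9%. KRT15 and KRT17 together held 0.176% in Bulk and 0.429%, 0.499% and 0.413%. On the length of the main transcript the hair keratins held 4.70% in Bulk and 13.9%, 14.2% and 11.9%, a smaller share in every library with the same order.

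Type II keratins held 60.7% of the FPKM of all 55 keratins in Bulk, against 55.8% in Claret, 56.0% in eGFP and 53.8% in Violet. Most of the gain on the type I side came from KRT19, and on the type II side from KRT81. On the length of the main transcript the type II share was 67.8% in Bulk, against 58.5%, 58.5% and 57.3% in the others.

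**Figure D4:**
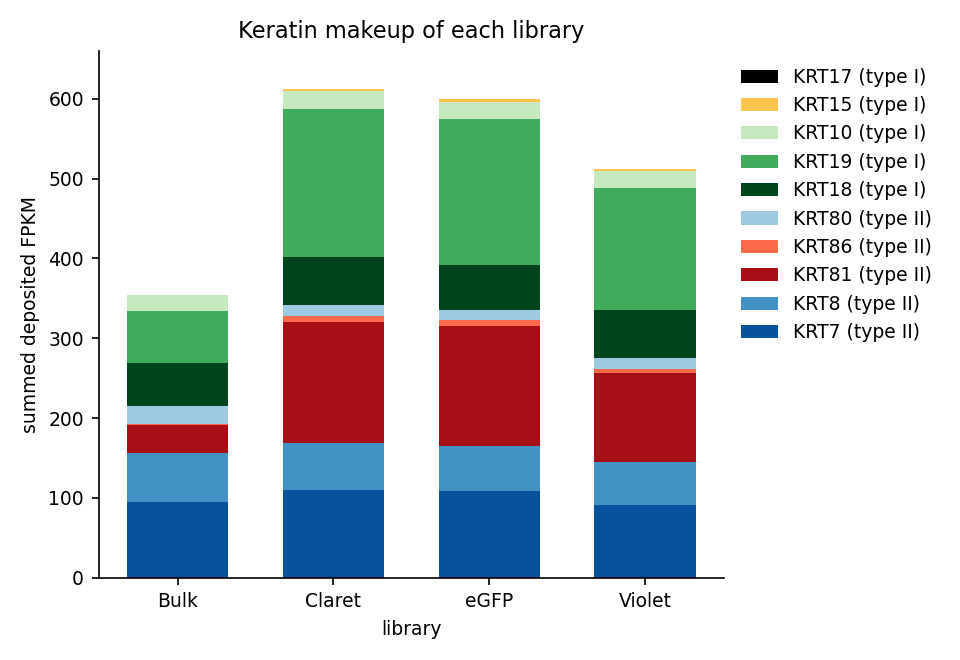
Stacked bars give deposited FPKM summed over the 10 keratins in each library, type II genes at the bottom and type I genes on top. The bar rises from 354 in Bulk to 511 to 612 in the slow-cycling libraries, and KRT19 and KRT81 account for most of the added height.

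Ratios of reads inside a library do not depend on library scaling. KRT81 had 17.6 reads per 100 reads of KRT7 in Bulk (16.4 to 18.8), against 65.2 in Claret (62.9 to 67.6), 65.6 in eGFP (63.2 to 68.1) and 57.7 in Violet (55.3 to 60.2). KRT19 had 87.2 reads per 100 reads of KRT18 in Bulk (82.4 to 92.2), against 223 in Claret (214 to 232), 239 in eGFP (229 to 249.8) and 182 in Violet (174 to 190.4). For both pairs the interval of Bulk lies below those of the other 3 libraries and that of Violet lies below those of Claret and eGFP.

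**Figure D5:**
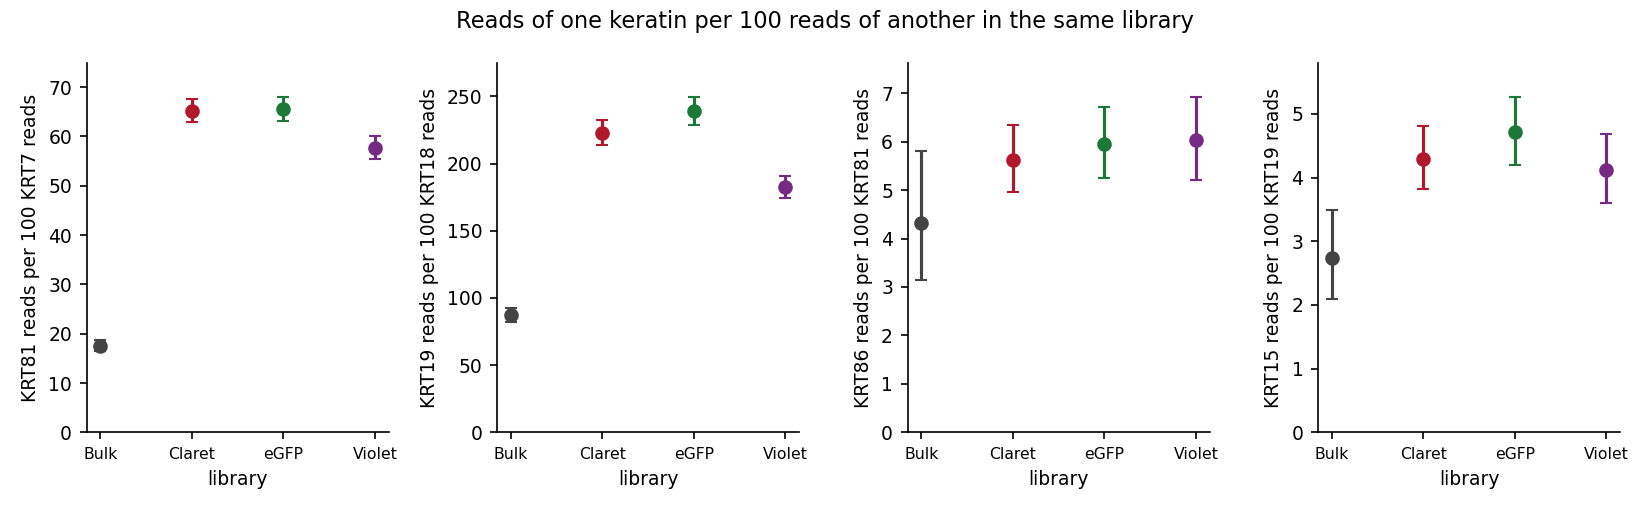
Reads of 1 keratin per 100 reads of another in the same library are plotted with 95% exact intervals for 4 pairs, with each vertical axis starting at 0. KRT81 per KRT7 and KRT19 per KRT18 are lowest in Bulk, while KRT86 per KRT81 has overlapping intervals in the 4 libraries.

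Among the 3 slow-cycling libraries, none of the 9 keratins tested differed by 2-fold. Of the 9 tested, 0 were called between Claret and eGFP, between Claret and Violet, or between eGFP and Violet, where 0.713%, 0.782% and 0.926% of all genes were called. At any fold, an adjusted p under 0.05 by the same exact binomial test was reached by 1 of the 9 between Claret and eGFP, by 4 between Claret and Violet and by 6 between eGFP and Violet. Over all genes these shares were 12.3%, 17.0% and 16.8%. KRT81 was the keratin furthest apart against Violet in Claret, by 0.42 (0.35 to 0.48), and was 0.41 above Violet in eGFP (0.35 to 0.48). KRT19 was 0.25 above Violet in Claret (0.20 to 0.30) and 0.25 in eGFP (0.19 to 0.30), and KRT7 was 0.24 and 0.23 above it. KRT15 was 0.31 above Violet in Claret (0.07 to 0.56) and 0.44 in eGFP (0.19 to 0.69). Claret and eGFP themselves differed by 0.00 for KRT81 (-0.06 to 0.06) and by 0.01 for KRT19 (-0.04 to 0.05).

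By likeness of the ratios to Bulk in the 3 libraries, the protein-coding genes nearest to KRT19 were CRYL1, GADD45A and NOP53, each within 0.10 on the log2 scale in every library. The nearest to KRT81 were UNC5CL (within 0.11), SLC45A1 and TNFSF15, and UNC5CL and SLC45A1 were also among the 3 nearest to KRT15, with CYP1A1. WNK4, METRNL and HID1 were nearest to KRT86, within 0.11 to 0.12. Likeness over 3 ratios that share the Bulk library, among 9746 genes compared, is a description only.

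Keratin filaments are anchored at the cell border by desmosomes and hemidesmosomes. Of 20 genes of these junctions and their linkers, 13 were tested, of which 2 were called higher in Claret and 1 each in eGFP and Violet, and 1 was called lower in each library. Over all genes 11.2% to 11.9% were called higher and 6.71% to 7.61% lower, so these counts are near the background. The list's median log2 ratio was -0.06, 0.04 and 0.11, near that of all genes. The genes called in all 3 libraries, ITGB4 and COL17A1, moved in opposite directions. ITGB4, an integrin subunit of the hemidesmosome, rose by 1.50, 1.17 and 1.79 in Claret, eGFP and Violet (2327 reads in Bulk and 7086, 5288 and 8020). COL17A1, a transmembrane collagen of the hemidesmosome, fell from 215 reads to 70, 45 and 72, with log2 ratios of -1.70, -2.22 and -1.55. JUP (plakoglobin) was the other gene called in Claret, at 1.01, with 0.94 in eGFP and 0.96 in Violet, on either side of the threshold. PLEC, the plectin linker of intermediate filaments to hemidesmosomes, had log2 ratios of 0.38 to 0.43 and was not called, and PERP had 0.11 to 0.24.

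Of 15 other intermediate filament genes, 9 were tested, and in each library 1 was called higher and 2 lower, with a median log2 ratio of -0.03 to 0.07. Among all genes tested, 11.2% to 11.9% were called higher and 6.71% to 7.61% lower. The lower ones were the nuclear lamins LMNB1, which fell by 2.39, 2.34 and 2.21 on the log2 scale, and LMNB2, which fell by 1.64, 1.74 and 1.77. The 1 called higher was PRPH (peripherin), on 7 reads in Bulk, against 21, 28 and 21 in Claret, eGFP and Violet. PRPH was under 1 CPM in Bulk and passed the filter on the mean only through the libraries where it is high, so it had to differ. VIM (vimentin), the mesenchymal filament, had log2 ratios of 0.46, 0.44 and 0.35 and was not called.

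Genes of the cornified envelope, the end stage of skin differentiation, were mostly silent. Of 16, 11 had no read in any library and 4 were tested. In Claret and Violet 0 were called. In eGFP CNFN (cornifelin) was called higher on 33 reads against 15 in Bulk (log2 ratio 1.03). FLG (filaggrin) was called lower there, at -1.01. CNFN was under 1 CPM in Bulk and passed the filter on the mean only through the slow-cycling libraries, so its call carries no weight. In eGFP 11.9% of all genes were called higher and 7.61% lower, so that 1 of 4 each way is too few to set against them. SFN (stratifin) had log2 ratios of -0.55, -0.51 and -0.73, and TGM1 (transglutaminase 1) had 0.33, 0.87 and 0.72, neither called.

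Of 17 transcription factors of keratin genes and epithelial differentiation, 9 were tested, and 2 were called higher and 0 lower in each library, where 11.2% to 11.9% of all genes were called higher. The list's median log2 ratio was -0.27 to -0.15. KLF4, a factor of epidermal barrier formation, rose from 483 reads in Bulk to 1293, 1241 and 1153, by 1.31, 1.35 and 1.25 on the log2 scale. ELF3, an epithelial ETS factor that is also in the luminal list, rose from 26 reads to 73, 68 and 98, by 1.32, 1.31 and 1.84. SP1 had log2 ratios of -0.30, -0.31 and -0.15, and TFAP2C of -0.44, -0.40 and -0.28, neither called.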

How the data were processed

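The authors' deposited count table gives raw read counts per gene, and their deposited FPKM table gives levels scaled to gene length and library size. HISAT2 2.0.5 and featureCounts 1.5.0-p3 are listed in the submitters' processing notes. The build, the use of strand and how multi-mapping reads were treated are not given in the sources used here. All 58735 genes have the start and end of GENCODE 29, an annotation of GRCh38, so coordinates are GRCh38, 1-based. FPKM times length over count was 1 constant per library, with library totals of 96.9% to 103.5% of the summed counts.

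Genes with a mean of at least 1 CPM were kept (14585). Libraries were scaled by TMM in edgeR 4.0.16 (R 4.3.3), and 2 counts were added as prior before log2 ratios of CPM were taken. With 1 library per group edgeR's own test has no residual degrees of freedom. The reads of each pair of libraries were therefore compared by a two-sided exact conditional binomial test (SciPy 1.17.1, smaller tail doubled) with Benjamini-Hochberg adjustment over all genes kept, which compares libraries, not conditions. Intervals are 95% Clopper-Pearson. The test was checked on simulated data drawn with counting error only, so that check does not cover spread between cultures. Reads carry no molecular identifiers, so intervals and the floor of 3 reads cover counting error only.

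Coding sequences and 31-base words come from GENCODE 29 transcripts. The keratins, the gene lists and the tests were chosen with earlier results of these data known. Genes named are the 10 keratins, and from each list up to 4, those called in all 3 libraries first and then by FPKM, with the 3 genes most like each called keratin among those of at least 10 CPM. JUP and KRT87P were named after their values had been seen. Alternatives were library-size scaling, DESeq2 1.42.0 size factors, no filter, a filter at 10 CPM, a prior count of 0.5, log2(FPKM + 1), a GC correction (lowess) and groups from the treatment field. Some items withheld for evaluation are not reported here.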

Additional observations from a re-analysis of the deposited data

How the results depend on the processing

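No paired analysis was possible because each group holds 1 library. The 4 keratins called higher in each slow-cycling library, the 0 called lower and the 0 called between slow-cycling libraries were the same in number under library-size scaling, DESeq2 size factors, no filter, a filter at 10 CPM, a prior count of 0.5 and a GC correction. On log2(FPKM + 1) they were 4 in Claret and eGFP and 3 in Violet, where KRT15 was at 0.96, under the threshold. KRT8 in Claret changed sign under library-size scaling (0.0061) and a filter at 10 CPM (0.048), as did KRT7 in Violet (0.031 and 0.062). Over these settings KRT81 in Claret ranged from 1.96 to 2.18 and KRT19 from 1.39 to 1.60, lowest with the GC correction. KRT15 ranged from 1.20 to 2.22 in Claret and 1.28 to 2.35 in eGFP, and KRT86 from 1.81 to 2.51 in Claret, lowest on log2(FPKM + 1).

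With groups from the treatment field, 0 keratins were called higher in any library, 4 were called lower in Claret, and 4 were called for Claret against eGFP and 4 for Claret against Violet. In Claret the log2 ratios were then -1.28 for KRT19, -1.85 for KRT15, -1.70 for KRT81, -2.13 for KRT86, -0.22 for KRT18, -0.14 for KRT10, 0.13 for KRT8 and 0.69 for KRT80. In eGFP they were 0.25 for KRT19, 0.31 for KRT15, 0.42 for KRT81 and 0.31 for KRT86. In Violet these 4 keratins had 0.25, 0.44, 0.41 and 0.39. KRT8, KRT18 and KRT80 had 0.11, -0.040 and 0.042 in eGFP, and KRT7, KRT8 and KRT18 had 0.23, 0.055 and -0.15 in Violet. This naming makes the library titled Violet the ungated one.

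The type II share was 72.5%, 63.9%, 63.9% and 62.7% in Bulk, Claret, eGFP and Violet with CPM in place of FPKM, and 67.8%, 58.5%, 58.5% and 57.3% with the main transcript's length. Depth limits KRT17, and KRT15 and KRT86 in Bulk.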

Other observations

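KRT8 and KRT18, which pair in 1 filament, did not keep a fixed ratio of reads. KRT18 had 41.4 reads per 100 reads of KRT8 in Bulk (95% interval 39.6 to 43.3), against 47.6 in Claret (45.7 to 49.6), 46.0 in eGFP (44.0 to 48.1) and 52.9 in Violet (50.6 to 55.2). The interval of Violet lies above those of the other 3 libraries. These intervals cover counting error only. The genes share 525 exonic bases, and 25.3% of the 31-base words of KRT8 and 35.0% of those of KRT18 occur in other genes. How reads there were assigned is not given, so the ratio is uncertain.

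The hair keratin pseudogene KRT87P (ENSG00000135477, chromosome 12) separated the slow-cycling libraries more than any of the 9 keratins tested did. It had 16 reads in Bulk, against 144 in Claret, 44 in eGFP and 66 in Violet. Claret against eGFP was called with a log2 ratio of 1.57 (1.12 to 2.14), where 0.713% of all genes were called. Claret against Violet was at 0.995 (0.59 to 1.46) and eGFP against Violet at -0.58 (-1.18 to -0.03), neither called. KRT87P was named after its values had been seen. It had 2.90 reads per 100 KRT81 reads in Claret (2.44 to 3.42) and 0.947 in eGFP (0.687 to 1.27), while KRT81 differed between these libraries by 0.00 on the log2 scale (-0.06 to 0.06). Of the 31-base words of KRT81, 16.8% occur in KRT87P, so its count is uncertain.

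KRT79, a type II keratin of hair follicles and sebaceous ducts, was the only other keratin above 1 CPM on average, with 2 reads in Bulk, against 21, 19 and 26 in Claret, eGFP and Violet. It reached that mean only through the libraries where it is high, so its call is not given. Its log2 ratios of 2.44, 2.39 and 2.82 rest on a Bulk count under the floor of 3 reads and carry no weight for the same reason.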
